A study of Mus musculus with 8 samples.

Results

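The 10 genes examined here carry out MHC class I antigen presentation: the heavy chains H2-K1 and H2-D1, the shared light chain B2m, the peptide transporter genes Tap1 and Tap2 and the loading factor Tapbp, the inducible proteasome subunits Psmb8, Psmb9 and Psmb10, and the transactivator Nlrc5. They were chosen by name from the 24584 genes of the deposited tables, by a rule that uses no measured value but with earlier results of these data known, and 10 of 10 were among the 15706 genes that passed the filter on low counts. Lungs came from male ICR mice of 6 to 8 weeks, an outbred stock, that all received 5 mg/kg of lipopolysaccharide (LPS), a bacterial outer membrane component, by intraperitoneal injection to produce acute lung injury, and were collected 12 h later. The LPS group had 4 samples, and the LPS + Tan group had 4 samples from mice given 50 mg/kg of tangeretin, a citrus flavonoid, 30 min before LPS. Mice without LPS were not analysed here, so the levels below compare treated with untreated injured lungs and do not show how LPS itself moved these genes. The libraries held between 38895654 and 39931970 counts, and replicates of a group differed by 9.17 to 32.1 times the sampling noise of their counts, which is more than 1 library sequenced again would give. The labels do not tie samples to separate animals beyond naming them as samples, so p-values measure the spread between these samples.

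Class I molecules display peptides from inside the cell to CD8 T cells and are also read by NK cells. Peptides are cut by the proteasome, carried into the endoplasmic reticulum by the TAP transporter, and loaded with the help of tapasin, the product of Tapbp, onto a heavy chain paired with beta-2 microglobulin. Interferon-gamma raises the genes of this pathway, among other factors through IRF1, replaces the constitutive catalytic proteasome subunits by inducible ones, and raises NLRC5, which acts at class I promoters.

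Of the 10 genes, 7 lie on mouse chromosome 17 in the MHC region, Psmb10 and Nlrc5 lie on chromosome 8, and B2m lies on chromosome 2 (RefSeq, GRCm38.p6). Psmb9 (chr17:34182030-34187330), Tap1 (chr17:34187556-34197225), Psmb8 (chr17:34198195-34201454) and Tap2 (chr17:34204479-34216321) form a cluster of 34.3 kb, in which the start sites of Psmb9 and Tap1 face away from each other and are 226 bases apart. Promoter sequence was found for 8 of the 10 genes in the RefSeq table of the same build, with no entry for Tap2 and Nlrc5. Sequences are printed for the 3 genes of the surface molecule and for the stretch that Psmb9 and Tap1 share, as the promoters of both heavy chains hold 3 of the 4 motifs searched and Psmb9 and Tap1 start from 1 stretch of DNA. H2-K1 is shown from chr17:34000348-34000597 on the minus strand, H2-D1 from chr17:35262844-35263093 on the plus strand, B2m from chr2:122147437-122147686 on the plus strand, each as the 250 bases before the start listed in that table, and the shared stretch from chr17:34187331-34187555 on the plus strand. For H2-K1 that start is position 34000347, which lies inside the span of the gene given below. Capitals mark matches on either strand to 4 motifs: an NF-kappa-B type site (GGG and TTCCC with 2 free bases between them), an interferon response type site (GAAA and GAAA with 2 free bases between them), the core of a cyclic AMP response type site (TGACG) and an inverted CCAAT box (ATTGG).
H2-K1: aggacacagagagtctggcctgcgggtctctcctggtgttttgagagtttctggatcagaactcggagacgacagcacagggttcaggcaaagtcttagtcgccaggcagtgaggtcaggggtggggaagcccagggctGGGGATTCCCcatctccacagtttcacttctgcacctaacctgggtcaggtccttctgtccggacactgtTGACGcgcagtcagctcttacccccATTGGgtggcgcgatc
H2-D1: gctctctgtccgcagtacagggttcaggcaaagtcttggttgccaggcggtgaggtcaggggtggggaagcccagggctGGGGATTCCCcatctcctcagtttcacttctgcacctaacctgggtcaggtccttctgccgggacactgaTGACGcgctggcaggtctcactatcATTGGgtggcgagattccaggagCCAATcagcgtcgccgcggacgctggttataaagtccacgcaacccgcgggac
B2m: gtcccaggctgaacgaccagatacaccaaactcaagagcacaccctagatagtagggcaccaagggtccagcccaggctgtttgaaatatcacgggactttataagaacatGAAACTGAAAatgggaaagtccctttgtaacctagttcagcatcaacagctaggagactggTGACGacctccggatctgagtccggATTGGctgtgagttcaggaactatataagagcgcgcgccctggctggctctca
Psmb9 and Tap1: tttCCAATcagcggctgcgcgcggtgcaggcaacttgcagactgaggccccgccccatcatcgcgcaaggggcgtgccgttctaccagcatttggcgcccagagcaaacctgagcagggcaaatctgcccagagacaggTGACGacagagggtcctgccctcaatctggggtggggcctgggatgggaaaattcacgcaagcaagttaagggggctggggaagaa
The NF-kappa-B type letters occurred in 2 of the 8 promoters, those of H2-K1 and H2-D1, against 1.53% of 32851 promoters of the same length. The interferon response type letters occurred in that of B2m alone among the 8, against 2.98% of all. The cyclic AMP type core was found in 5 of 8 (17.8% of all) and the CCAAT box in 6 of 8 (33.8% of all), where Psmb9 and Tap1 count the same bases of their shared stretch for both motifs. Over 190 aligned bases, the H2-K1 and H2-D1 promoters were identical at 167, or 87.9%. These matches describe letters and not bound sites. Only these exact letters and spacings were searched, so a promoter without a match can still hold a related site.

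LPS + Tan replicate 4 stood apart on 1 of the first 2 principal components of all tested genes. On the first, with 26.2% of the variance, it lay at -15.7, within the range of the other samples (-33.7 to 35.05). On the second component, which held 19.3% of the variance, it lay at 39.8, against -22.7 to 12.5 for the other 7 samples. Its total count and its scaling factor (0.971) were within the range of the others. The fold changes below are therefore given with all 8 samples and without this one, which was singled out after its values had been seen. Levels, spreads and correlations use all 8 unless stated.

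**Figure D1:**
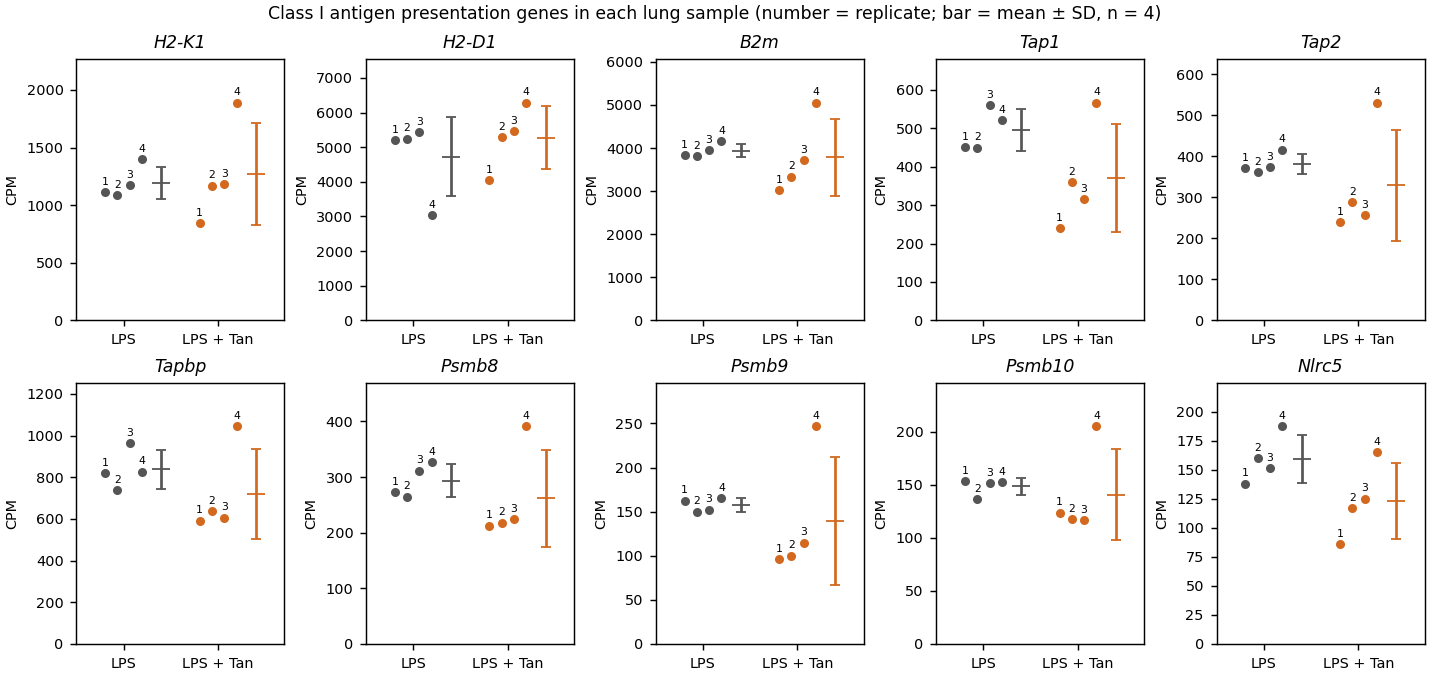
Level of each of the 10 class I genes as CPM (read counts scaled to 1 common library size, vertical axes from 0) in the 4 LPS samples (grey) and the 4 LPS + Tan samples (orange); numbers name the replicate and the bar beside each group is the mean ± SD (n = 4). In 9 of 10 genes, all but Nlrc5, LPS + Tan replicate 4 is the highest of the 8 samples, and in 8 of 10, all but H2-K1 and H2-D1, the other 3 LPS + Tan samples lie below every LPS sample.

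With all 8 samples, no difference between LPS + Tan and LPS passed the test in any of the 10 genes. By edgeR's quasi-likelihood test, 0 of 10 were lower and 0 of 10 were higher at an unadjusted p below 0.05, where 2.25% and 2.87% of all tested genes were, and 0 of 10 passed after Benjamini-Hochberg adjustment, as 0.0% of all genes did. None of the 10 had an absolute log2 fold change above 1 with an unadjusted p below 0.05, as 0.649% of all genes had. DESeq2 gave 1 of 10 lower at an unadjusted p below 0.05, Nlrc5, where 2.08% of its tested genes were, and 0 of 10 after adjustment (0.226% of all). The fold change was negative for 8 of 10, with a median log2 fold change of -0.17 over the 10 and of 0.0070 over all tested genes. The groups overlapped in all 10 genes, and 2.73% of all tested genes had groups that did not.

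Without LPS + Tan replicate 4, the same test placed 7 of 10 genes lower in LPS + Tan at an unadjusted p below 0.05, where 4.56% of all tested genes were lower. These were Tap1, Tap2, Tapbp, Psmb8, Psmb9, Psmb10 and Nlrc5, the 3 genes of the surface molecule being the others. None of the 10 passed after adjustment by edgeR, against 0.00628% of all genes, and the smallest adjusted p was 0.0782, for Psmb9. DESeq2 on the same 7 samples, added after the data were seen, called 8 of 10 lower at an unadjusted p below 0.05 (3.68% of all genes), B2m being the addition, and 7 of 10 at an adjusted p below 0.05 (1.47% of all genes in either direction). The median log2 fold change moved from -0.17 to -0.44. Leaving out any of the other 7 samples instead gave 0 of 10 at an unadjusted p below 0.05 by edgeR.

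**Figure D2:**
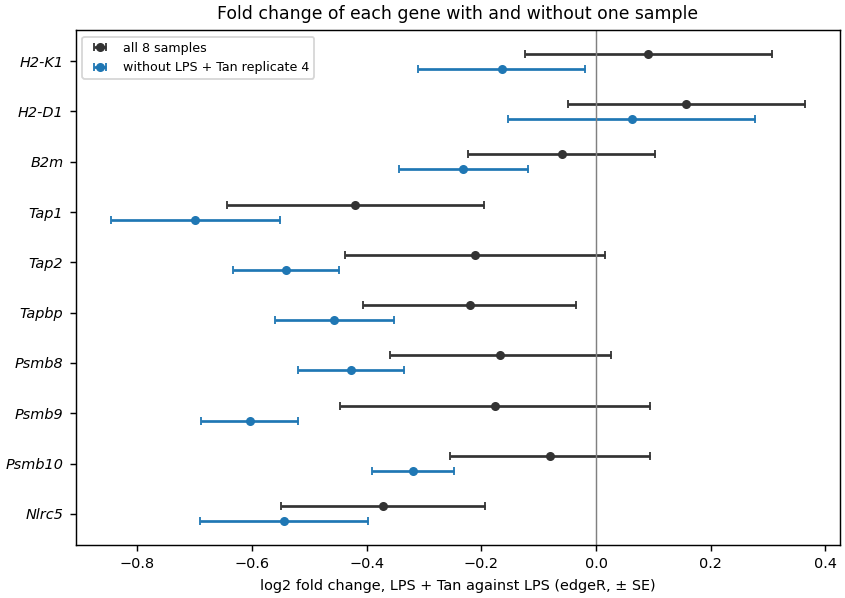
Log2 fold change of LPS + Tan against LPS with its standard error (horizontal axis, edgeR) for each gene, with all 8 samples (dark) and without LPS + Tan replicate 4 (blue). The 7 transport, loading, proteasome and transactivator genes move from between -0.42 and -0.080 to between -0.70 and -0.32, and H2-D1 stays above 0 in both fits.

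The heavy chain H2-K1 (chr17:33996012-34000619), which binds the peptide, measured 1116, 1087, 1174 and 1397 CPM in LPS replicates 1 to 4 and 844, 1170.2, 1181 and 1890.0 CPM in LPS + Tan replicates 1 to 4. LPS + Tan replicates 2 and 3 lay among the LPS samples, replicate 1 below them and replicate 4 above. Its log2 fold change was 0.09 ± 0.22 (SE, edgeR, adjusted p = 0.985) with all samples and -0.16 ± 0.15 (adjusted p = 0.779) without LPS + Tan replicate 4.

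H2-D1 (chr17:35263094-35267497), the other classical heavy chain in the set, measured 5199, 5250.1, 5442 and 3038 CPM in the LPS samples and 4060.3, 5290.3, 5469.7 and 6288 CPM in the LPS + Tan samples. Here it was LPS replicate 4 that was far below its group, at 117190 reads against 203270 to 208250 in the other 3. The log2 fold change was 0.16 ± 0.21 (SE, edgeR, adjusted p = 0.977), 0.06 ± 0.21 (adjusted p = 0.965) without LPS + Tan replicate 4, and -0.0055 without LPS replicate 4. The same sample did not have a low H2-K1, so its ratio of H2-D1 to H2-K1 in FPKM (fragments scaled to gene length and library size) was 2.73, against 5.82 to 6.07 in the other LPS samples. LPS + Tan replicate 4 had a ratio of 4.18, and the other LPS + Tan samples had ratios of 5.68 to 6.05.

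Among the other class I heavy chain genes, H2-Q10 and H2-T23 also read differently in LPS replicate 4 than in LPS replicates 1 to 3. H2-Q10, a secreted class I chain known from liver, stood at 8.32 CPM (321 reads) there and at 0.153 to 0.340 CPM (6 to 14 reads) in the other 7 samples. H2-T23, which encodes the Qa-1 chain read by NK cells and was named after its values were seen, measured 863, 911 and 929 CPM in LPS replicates 1 to 3 and 551 CPM in replicate 4, and 602, 474, 831 and 673 CPM in LPS + Tan replicates 1 to 4. Of the 100-base windows of the H2-D1 reference transcript, 4.64% occur word for word in another gene, among them H2-Q6, H2-Q7, H2-T22 and H2-T23, so reads there could be assigned to either. No window of H2-K1 was shared. ICR mice are outbred and class I genes differ between haplotypes, and the part of allele differences from the reference, or of shared reads, in these values was not tested.

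B2m (chr2:122147687-122153082), the light chain of class I molecules, measured 3839, 3816, 3957 and 4157 CPM in the LPS samples and 3019, 3335, 3720.2 and 5055 CPM in the LPS + Tan samples. The LPS samples were close together, and LPS + Tan replicates 1 to 3 lay below and replicate 4 above all of them. Its log2 fold change was -0.06 ± 0.16 (SE, edgeR, adjusted p = 0.987) with all samples and -0.23 ± 0.11 (adjusted p = 0.580) without LPS + Tan replicate 4.

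Tap1, which codes for 1 chain of the peptide transporter, measured 451, 449.8, 561 and 522 CPM in the LPS samples and 241, 361, 316 and 567 CPM in the LPS + Tan samples. LPS + Tan replicate 4 was just above the highest LPS sample, and the other 3 were below the lowest. The log2 fold change was -0.42 ± 0.22 (SE, edgeR, unadjusted p = 0.0914, adjusted p = 0.924), and -0.70 ± 0.15 (unadjusted p = 0.00115, adjusted p = 0.196) without LPS + Tan replicate 4.

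Tap2, the partner chain, measured 371, 363, 374 and 416 CPM under LPS and 240.3, 289, 257 and 531 CPM under LPS + Tan. Its samples fell in the same way, with LPS + Tan replicate 4 above the whole LPS group. The log2 fold change was -0.21 ± 0.23 (SE, edgeR, adjusted p = 0.966) with all samples and -0.54 ± 0.092 (adjusted p = 0.115) without replicate 4 of LPS + Tan. Tapbp (chr17:33919478-33929290), whose product bridges the transporter and the heavy chain, measured 821, 740.2, 966 and 828 CPM under LPS and 592, 636, 606 and 1045 CPM under LPS + Tan. LPS + Tan replicates 1 to 3 lay close together and below every LPS sample, and replicate 4 lay above all of them. The log2 fold change of Tapbp was -0.22 ± 0.19 (SE, edgeR, adjusted p = 0.947) with all samples and -0.46 ± 0.10 (adjusted p = 0.233) without LPS + Tan replicate 4.

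The inducible proteasome subunits were placed against the LPS range in the same way. Psmb8, the subunit that takes the place of Psmb5, measured 272, 265, 312 and 327 CPM in the LPS samples and 213, 218, 225 and 391 CPM in the LPS + Tan samples. Psmb9, which takes the place of Psmb6, measured 163, 150.0, 152 and 165 CPM in the LPS samples and 95.8, 100.1, 115 and 247 CPM in the LPS + Tan samples. Psmb10 (chr8:105935728-105938392), which takes the place of Psmb7, measured 154, 137, 152 and 153 CPM in the LPS samples and 124, 118, 116 and 205 CPM in the LPS + Tan samples. In each of the 3, LPS + Tan replicates 1 to 3 were below the LPS range and replicate 4 was above it.

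With all samples the log2 fold changes of these subunits were -0.17 ± 0.19 for Psmb8, -0.18 ± 0.27 for Psmb9 and -0.08 ± 0.17 for Psmb10 (SE, edgeR, adjusted p = 0.970, 0.979 and 0.985). Without LPS + Tan replicate 4 they were -0.43 ± 0.093, -0.60 ± 0.084 and -0.32 ± 0.072 (adjusted p = 0.220, 0.0782 and 0.233). The constitutive subunits were tested beside them. Psmb5 lay at 28.0 to 30.8 CPM in the LPS samples and at 27.1 to 33.8 CPM in the LPS + Tan samples, with a log2 fold change of 0.06 ± 0.087 (SE, edgeR, adjusted p = 0.979) and of 0.0068 ± 0.082 (adjusted p = 0.992) without LPS + Tan replicate 4. Psmb6 had -0.11 ± 0.086 with all samples and -0.17 ± 0.074 without that one (edgeR, adjusted p = 0.938 and 0.527), the latter at an unadjusted p of 0.0455. Psmb7 had -0.04 ± 0.095 and -0.11 ± 0.083 (adjusted p = 0.985 and 0.742).

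A ratio of inducible to constitutive subunit within a sample does not depend on how the samples are scaled. The FPKM ratio of Psmb8 to Psmb5 was 6.30, 6.32, 7.58 and 8.29 in the LPS samples and 5.11, 4.83, 5.90 and 8.24 in the LPS + Tan samples. That of Psmb9 to Psmb6 was 2.03, 2.15, 2.08 and 2.28 under LPS and 1.44, 1.46, 1.85 and 3.23 under LPS + Tan. Psmb10 to Psmb7 gave 1.18, 1.18, 1.2016 and 1.34 under LPS and 1.0045, 1.07, 1.10 and 1.53 under LPS + Tan. For all 3 ratios the groups overlapped through LPS + Tan replicate 4 alone.

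The mean log2 ratio was lower in LPS + Tan by 0.26 for Psmb8 to Psmb5 (log2 difference -0.26, two-sided exact permutation p = 0.257), with differences of -0.18 (p = 0.543, exact) for Psmb9 to Psmb6 and -0.08 (p = 0.629, exact) for Psmb10 to Psmb7, each with an adjusted p of 0.629 over the 3 ratios. These differences were smaller than the SD of the log2 ratio among the LPS + Tan samples, which was 0.35, 0.54 and 0.27. Among the LPS samples that SD was 0.20, 0.073 and 0.085, below the first 2 differences. Without LPS + Tan replicate 4 the differences were -0.43, -0.44 and -0.21. The exact permutation p was then 0.0286 for each, the smallest that 4 against 3 samples allow. As the groups overlapped through that sample alone, leaving it out fixed this p in advance, so no conclusion is drawn from it.

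**Figure D3:**
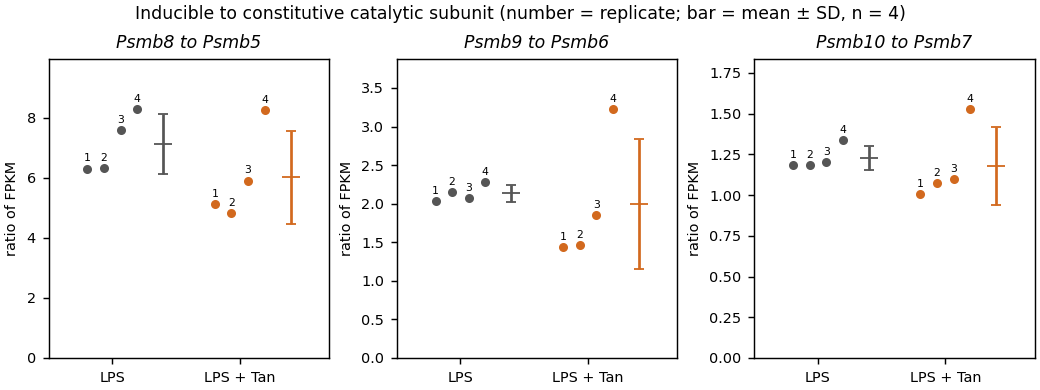
Ratio of the FPKM of each inducible catalytic subunit to that of the constitutive subunit it replaces (vertical axes from 0) in the 4 LPS samples (grey) and the 4 LPS + Tan samples (orange), with replicate numbers and mean ± SD (n = 4). LPS + Tan replicates 1 to 3 lie below all LPS samples in each ratio, while replicate 4 reaches 8.24, 3.23 and 1.53.

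Nlrc5 (chr8:94434335-94527272), the transactivator of class I genes, measured 138, 160.1, 152 and 187 CPM in the LPS samples and 85.9, 117, 125 and 165 CPM in the LPS + Tan samples. It differed from the other members in that LPS + Tan replicate 4 was within the LPS range, although it was again the highest of its own group. The log2 fold change was -0.37 ± 0.18 (SE, edgeR, unadjusted p = 0.0636, adjusted p = 0.924), and -0.54 ± 0.15 (unadjusted p = 0.00522, adjusted p = 0.322) without LPS + Tan replicate 4. DESeq2 gave an unadjusted p of 0.0476 with all samples, with an adjusted p of 0.790.

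The pattern over samples was shared by most of the set. LPS + Tan replicate 4 was the highest of the 8 samples in 9 of 10 genes, against 20.2% of all tested genes. LPS + Tan replicates 1 to 3 all lay below every LPS sample in 8 of 10, against 4.6% of all. Both held in 7 of 10, namely B2m, Tap2, Tapbp, Psmb8, Psmb9, Psmb10 and Tap1, against 1.99% of all. These patterns were set after the values of LPS + Tan replicate 4 had been seen. The genes also move together, so the shares are descriptions and not separate agreements. Relative to the mean of the LPS samples, the 10 genes were higher in LPS + Tan replicate 4 by 0.06 to 0.67 on the log2 scale, with a median of 0.43. Their medians in replicates 1, 2 and 3 were -0.49, -0.39 and -0.37.

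With all samples, the members therefore varied more among the LPS + Tan samples than among the LPS samples. Much of this spread comes from LPS + Tan replicate 4, whose median of 0.43 stands against -0.49 to -0.37 in replicates 1 to 3. The SD without that sample was not computed. The SD of log2 CPM had a median of 0.15 over the 10 genes in LPS and 0.41 in LPS + Tan, with a median ratio of 3.09. Over all tested genes these medians were 0.17, 0.22 and 1.28. The SD was larger in LPS + Tan for 9 of 10 members, against 64.9% of all genes. Psmb9 had an SD of 0.068 in LPS and 0.64 in LPS + Tan, or 9.37 times as much. Its log2 CPM was 6.58, 6.65 and 6.85 in LPS + Tan replicates 1 to 3 and 7.95 in replicate 4. H2-D1, the exception, had an SD of 0.40 in LPS and 0.26 in LPS + Tan.

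**Figure D4:**
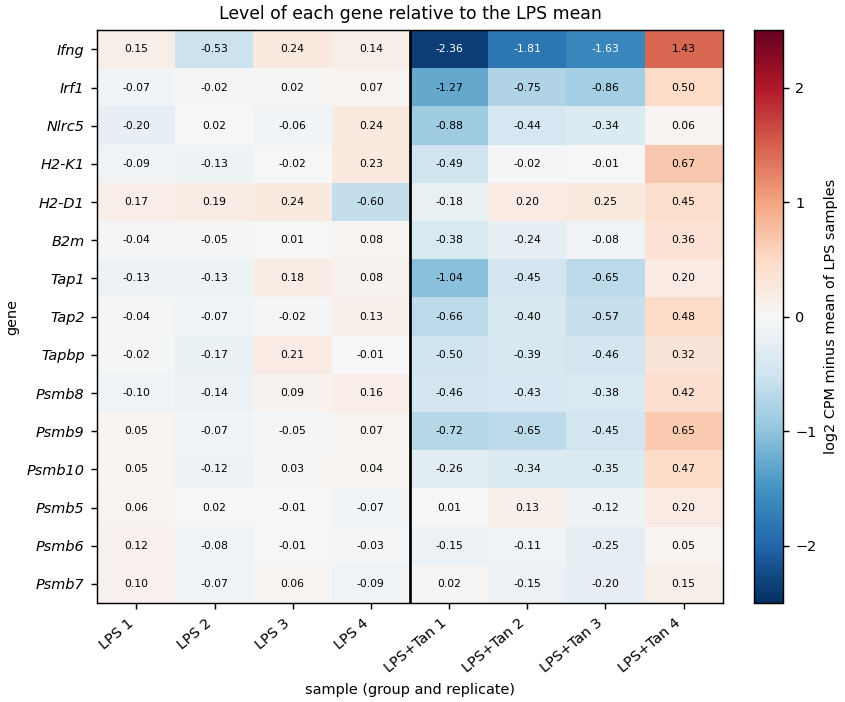
Log2 CPM of each gene (rows) in each sample (columns) minus the mean of the 4 LPS samples, in colour and as printed values. In LPS + Tan replicate 4 none of the 10 class I genes is below the LPS mean, and in LPS + Tan replicate 1 all 10 are, from -1.04 for Tap1 to -0.18 for H2-D1.

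Compared per length as FPKM in the LPS samples, the 3 genes of the surface molecule stood above the 7 genes that supply and load it. B2m stood at 4526 ± 189 FPKM (SD, n = 4), H2-D1 at 2683 ± 633 and H2-K1 at 539 ± 64.5. Tapbp followed at 300.0 ± 27.1, Psmb8 at 237 ± 22.4, Tap1 at 165 ± 15.8 and Tap2 at 151 ± 10.1. Psmb9 measured 140 ± 7.29, Psmb10 115 ± 5.17 and Nlrc5 19.8 ± 2.77. The ranges of Tap1 and Tap2 and those of Tap2 and Psmb9 overlapped, and no other neighbours in this order did.

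Most members rose and fell with each other. Over the 45 pairs and the 8 samples, the median Pearson r of log2 CPM was 0.84. The 9 pairs that hold H2-D1 had r of -0.04 to 0.27, and the other 36 had a median of 0.88 and none below 0.64. These are descriptions, since the pairs share the same samples and the same library scaling.

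With Nlrc5, 6 of the 9 other members correlated over the 8 samples at a Benjamini-Hochberg adjusted p below 0.05, by Pearson's r and again by Spearman's rho (exact permutation tests over the 9 relations). The share of all tested genes that correlate with Nlrc5 was not computed, so this count has no background beside it. On log2(FPKM + 1) in place of log2 CPM, 1 of 9 passed by r and 0 of 9 by rho. Tap1 had the highest r at 0.91 (exact permutation p = 0.00226, adjusted p = 0.0203) with rho of 0.81 (exact permutation p = 0.0218, adjusted p = 0.0327). H2-D1 had the lowest, r = -0.04 (exact permutation p = 0.917, adjusted p = 0.917) and rho = 0.02 (exact permutation p = 0.977, adjusted p = 0.977). Without the 2 samples farthest from the median of Nlrc5, LPS replicate 4 and LPS + Tan replicate 1, the 9 values of r were 0.45 to 0.86 and 0 of 9 passed after adjustment over the 6 samples left. The r of the 6 members called before was 0.78 to 0.86 there. Those samples come from both groups, so this r still holds any difference between the groups. On deviations from the group means 6 of 9 passed by r and 0 of 9 by rho. There the 2 farthest samples were LPS + Tan replicates 1 and 4, and without them r was -0.83 to 0.78 and 0 of 9 passed. Among the 6 called on deviations, r was then 0.78 for H2-K1, 0.57 for B2m and 0.46 for Psmb8. It was 0.28 for Tap2, 0.20 for Tap1 and 0.14 for Psmb9.

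Of all other tested genes, the 5 whose level over the 8 samples was most like the mean standardised level of the members were Marchf5 (Pearson r = 0.987), Igtp (r = 0.985), Serpina3g (r = 0.985), Pnp (r = 0.985) and Ifng (r = 0.980), given as a measure of likeness with no test. Igtp encodes an interferon-gamma induced GTPase, and Ifng encodes interferon-gamma itself. Ifng measured 5.70, 3.55, 6.06 and 5.68 CPM in the LPS samples, which is 140 to 232 reads, and 0.959, 1.42, 1.63 and 13.9 CPM in the LPS + Tan samples, which is 39, 56, 67 and 536 reads. These values form 3 clusters without overlap, LPS + Tan replicates 1 to 3, the LPS samples, and LPS + Tan replicate 4, so its r reflects how these clusters are placed and the relation of the members to Ifng was not tested. The log2 fold change of Ifng was -0.23 ± 0.74 (SE, edgeR, adjusted p = 0.989) with all samples and -1.97 ± 0.27 (adjusted p = 0.0782) without LPS + Tan replicate 4.

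Irf1, a transcription factor that acts below the interferon-gamma receptor, was named after its values were seen. It measured 664, 686, 709 and 735 CPM in the LPS samples and 289, 415, 385 and 989.8 CPM in the LPS + Tan samples. LPS + Tan replicates 1 to 3 were below every LPS sample and replicate 4 above them all, as in most of the members. Its log2 fold change was -0.43 ± 0.32 (SE, edgeR, adjusted p = 0.938) with all samples and -0.95 ± 0.13 (adjusted p = 0.0782) without LPS + Tan replicate 4.

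**Figure D5:**
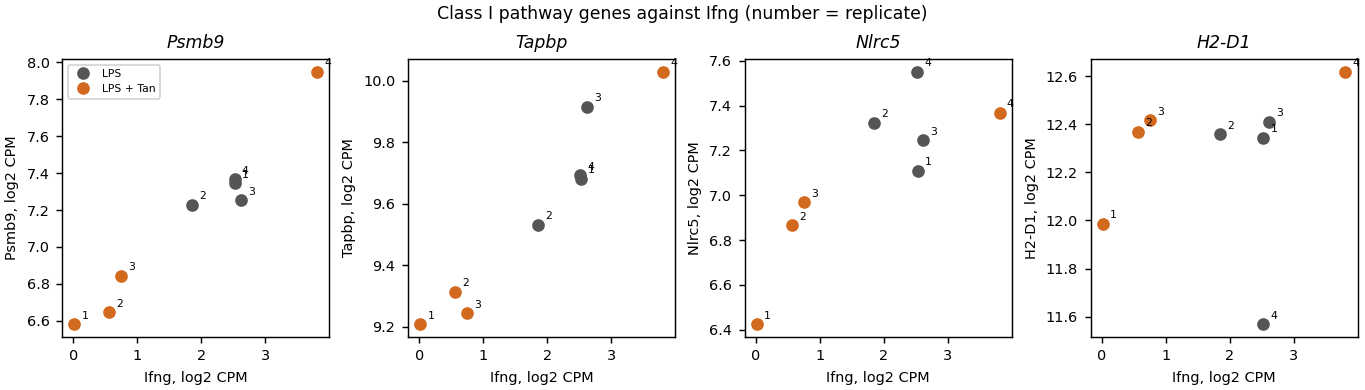
Log2 CPM of Psmb9, Tapbp, Nlrc5 and H2-D1 (vertical axes, not from 0) against log2 CPM of Ifng (horizontal axes) in the 4 LPS samples (grey) and the 4 LPS + Tan samples (orange), with replicate numbers. The samples form 3 clusters along Ifng, and LPS replicate 4 lies apart from the rest in H2-D1.

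The other genes of the pathway were counted in 7 lists that hold 81 genes beside the members, of which 76 were in the tables and 70 were tested. With all samples 2 of 70 were lower and 0 of 70 higher at an unadjusted p below 0.05 by edgeR (backgrounds 2.25% and 2.87%), and none passed after adjustment. These were H2-Q10, with a log2 fold change of -2.91 ± 1.23 (SE, edgeR, unadjusted p = 0.0393, adjusted p = 0.924) that was 0.51 without LPS replicate 4, and Rfx5, a subunit of the RFX complex that binds class I and class II promoters, with -0.30 ± 0.13 (SE, edgeR, unadjusted p = 0.0461, adjusted p = 0.924). Without LPS + Tan replicate 4 they had -2.78 ± 1.45 and -0.34 ± 0.14 (SE, edgeR, adjusted p = 0.608 and 0.523). Without LPS + Tan replicate 4, 19 of 70 were lower and 1 of 70 higher at an unadjusted p below 0.05 (backgrounds 4.56% and 4.78%), and 0 of 70 passed after adjustment by edgeR.

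By role, the list of the immunoproteasome and its activator PA28 had 0 of 7 genes lower with all samples (2.25% of all tested genes) and 6 of 7 without LPS + Tan replicate 4 (4.56% of all), with a median log2 fold change of -0.16 and -0.36 against 0.0070 and 0.0062 over all genes. Its genes outside the 10 that were lower were Psme1 and Psme2, the chains of PA28, and Pomp, the assembly factor. Psme1 had -0.16 ± 0.16 with all samples and -0.36 ± 0.081 without that sample (SE, edgeR, adjusted p = 0.965 and 0.233), and Psme2 had -0.19 ± 0.19 and -0.47 ± 0.078 (adjusted p = 0.965 and 0.114). The summed level of the list was 1263 to 1404 CPM in the LPS samples, 1028 to 1041 CPM in LPS + Tan replicates 1 to 3, and 1736 CPM in replicate 4. The constitutive core, with 0 of 14 genes lower with all samples and 4 of 14 without that one, summed to 1498 to 1637, 1397 to 1456 and 1719 CPM.

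The counts in the next lists are to be read against the same backgrounds, 2.25% lower with all samples and, without LPS + Tan replicate 4, 4.56% lower and 4.78% higher. In the list of transport and loading factors, 0 of 13 genes were lower with all samples. Without LPS + Tan replicate 4, 5 of 13 were lower, namely Tap1, Tap2, Tapbp, Tapbpl and Erap1. Tapbpl, a tapasin-related peptide editor, had log2 fold changes of -0.26 ± 0.18 and -0.48 ± 0.12 (SE, edgeR, adjusted p = 0.936 and 0.284), and Erap1, which trims peptides, had -0.15 ± 0.092 and -0.22 ± 0.078 (adjusted p = 0.928 and 0.451). Of the 17 transcription factors, 1 was lower with all samples and 6 were lower, among them Nlrc5, Rfx5, Irf1 and Irf8, and 1 was higher (Nfya) without that sample. Stat2 stood at -0.24 ± 0.12 with all samples and -0.35 ± 0.096 without that one (SE, edgeR, adjusted p = 0.924 and 0.329). Of 15 other tested class I and class I-like chains, 1 was lower with all samples (H2-Q10) and 2 were lower without LPS + Tan replicate 4 (H2-Q1 and Cd1d1), and H2-Q6 stood at 0.45 ± 0.22 and 0.46 ± 0.25 in these fits (SE, edgeR, adjusted p = 0.924 and 0.622). Of 11 interferon ligands, receptors and kinases, 0 were lower with all samples and 3 without that one (Ifng, Jak2 and Il18).

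Markers of the cells that a lung sample can hold were set beside these values, since in whole tissue fewer cells of a type and less RNA per cell cannot be told apart. Epithelial markers summed to 19833 to 30421 CPM over the 8 samples, and none of their 12 genes was at 0 in all samples. The 18 markers of CD8 T cells and NK cells, which make interferon-gamma, summed to 306 to 554 CPM in LPS, 235 to 560.5 CPM in LPS + Tan replicates 1 to 3 and 325 CPM in replicate 4. Markers of cross-presenting dendritic cells summed to 220 to 248, 218 to 237 and 232 CPM, and those of neutrophils to 4340 to 5779, 4031 to 5717 and 5416 CPM. In all 3 lists LPS + Tan replicate 4 lay within the LPS range. It lay outside that range for macrophage markers (2560.2 CPM against 1520.1 to 2554 in LPS), epithelial markers (30421 against 21263 to 29820), B cell markers (25.4 against 30.0 to 47.3) and fibroblast markers (2959 against 3244 to 4260.2), and their part in the class I levels was not tested. Endothelial markers summed to 3465 to 4249.9 CPM in LPS and 4005 to 4571 in LPS + Tan, and erythroid markers to 1431 to 3462 and 1330 to 2186 CPM. At an unadjusted p below 0.05 by edgeR with all samples, 3 of 10 endothelial markers (Tek, Kdr and Sox17) and 1 of 12 macrophage markers (C1qa) were higher, against 2.87% of all genes, and 1 of 9 dendritic cell markers (Tlr3) was lower, against 2.25%. When LPS + Tan replicate 4 was left out, 2 of 10 endothelial (Kdr and Sox17) and 3 of 12 macrophage markers (Cd68, Csf1r and C1qa) were higher (4.78% of all), and 2 of 12 epithelial (Epcam and Foxj1), 1 of 9 dendritic cell (Tlr3) and 1 of 8 erythroid markers (Hba-a2) were lower (4.56% of all). In both fits 0 markers of CD8 T cells and NK cells, neutrophils, B cells or fibroblasts were called, and none of any list passed after adjustment.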

How the data were processed

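RNA-seq of whole lung was deposited by the authors as a table of raw gene counts and a table of FPKM values (each equal to the count scaled to gene length and library total) for 24584 genes in 4 LPS and 4 LPS + Tan samples. The submitters' processing notes name the builds GRCm38 and mm10; no aligner, counter or annotation was given in the sources used here, and the labels and the study's methods name different library kits. Symbols were matched to RefSeq GRCm38.p6 (23807 matched).

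Counts were tested across all genes with edgeR 4.0.16 (filterByExpr, TMM, quasi-likelihood F test, R 4.3.3) with Benjamini-Hochberg adjustment over 15706 genes. DESeq2 1.42.0 and limma 3.58.1 (voom, and log2(FPKM + 1) or log2(FPKM + 0.1)) were alternatives. The study's own rule was an unadjusted p below 0.05 with an absolute log2 fold change above 1. CPM values used TMM-scaled totals, and correlations log2 CPM with a prior count of 2. Ratios and correlations were tested by exact permutation. The tests were checked on simulated counts. Sequence windows of 100 bases were compared over GENCODE M21 transcripts. Samples were grouped by their labels. Replicate numbers did not pair samples (correlations of deviations for equal numbers 0.123, -0.0306, -0.148 and 0.0195).

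The members and gene lists were chosen with earlier results of these data known. Named genes were the members, Psmb5, Psmb6 and Psmb7, the 2 genes with the lowest p in each pathway list, and the 5 genes most like the members. Other names were chosen after their values were seen.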

Additional observations from a re-analysis of the deposited data

Results flagged for a closer look

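Dixon's ratio, the gap of the most extreme sample to its neighbour over the range of its group, was computed for the named genes and ratios in 72 groups of 4 samples. It passed its 95% critical value in 12, of which 6 were in LPS + Tan replicate 4. About 1 in 20 groups passes by chance, or 3.6 here, a figure that does not hold for genes picked from their values, among them H2-T23, Marchf5, Pnp and Ifng. In that sample log2 CPM was high for Tapbp (0.872), Psmb8 (0.908), Psmb10 (0.892), Psme2 (0.881), Marchf5 (0.834) and Pnp (0.839). In LPS replicate 4, H2-D1 was low (0.922), H2-T23 was low (0.859), H2-Q10 was high (0.909) and the log2 ratio of Psmb10 to Psmb7 was high (0.866). In LPS replicate 2, Psmb10 (0.889) and Ifng (0.877) were low. The groups share samples and the genes move together, so these are not 12 separate events.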

How the results depend on the processing

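The count of members lower at an unadjusted p below 0.05, which was 0 by edgeR, was 1 by DESeq2, 1 without a low count filter and 1 by limma-voom (Nlrc5 each time), 0 to 7 when a sample was left out in turn, and 8 by DESeq2 without LPS + Tan replicate 4, where 7 members passed after adjustment. With the replicate block it was 2 (Tap1 and Nlrc5, with 2.73% of all genes), but equal numbers did not deviate together and not every sample correlated best with its own number. For the other pathway genes, the 2 lower genes became 1 by DESeq2, 1 with a filter of 1 CPM in 4 samples, 0 by limma-voom and 0 on log2(FPKM + 1) or log2(FPKM + 0.1), 5 with the replicate block, 0 to 19 with a sample left out, and 19 by DESeq2 without LPS + Tan replicate 4, where 8 of the other pathway genes passed after adjustment. The 0 higher genes became 2 without a low count filter, 3 with either FPKM setting, 1 with the replicate block and 0 to 2 with a sample left out. The single gene past both limits, H2-Q10, became 0 by DESeq2, by the 1 CPM filter, by limma-voom, by both FPKM settings and with the replicate block, 2 without a low count filter, and 0 to 1 with a sample left out.

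Directions turned when a sample was left out for H2-K1 (-0.16 to 0.24 on the log2 scale, and -0.17 by DESeq2 without LPS + Tan replicate 4), H2-D1 (-0.0055 to 0.26), B2m (-0.23 to 0.032), Psmb7 (-0.11 to 0.0058), H2-Q10 (-3.30 to 0.51) and Ifng (-1.97 to 0.11). The log2 ratio differences ranged from -0.43 to -0.17 for Psmb8 to Psmb5, -0.44 to -0.048 for Psmb9 to Psmb6 and -0.21 to -0.0075 for Psmb10 to Psmb7. The median of the members ranged from -0.44 to -0.057. Members correlated with Nlrc5 fell from 6 to 1 by r on log2(FPKM + 1), with 0 by rho, and to 0 without the 2 farthest samples. The fold changes of the other 7 members kept their sign in every alternative run. In each case the cause was not tested. Each member had at least 3491 reads in every sample, whereas Ifng rests on as few as 39 reads and H2-Q10 on 6.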
